A study of Mus musculus with 3 samples.

Results

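Siglec receptors are sialic acid-binding lectins of the immunoglobulin superfamily, and the 6 mouse genes described here are Siglech, Cd33, Cd22, Siglecg, Siglec1 and Siglece. They were taken as all probe sets that the platform annotation assigns to one of these symbols, which gave 9 probe sets for 6 of the 18194 genes on the array. Dendritic cells (DC) were sorted from spleen into plasmacytoid DC (pDC), CD8+ conventional DC (CD8+ cDC) and CD11b+ conventional DC (CD11b+ cDC), giving 3 subsets. The donors were female mice of strain C57bl/6, 6 to 8 weeks old, and the cells are labelled naive. T and B cells had been depleted with magnetic beads before the sort, and no genetic change or agent is named in the labels. RNA of each subset came from pools of 5 to 8 mice and went onto 1 Affymetrix array, so no spread between animals or arrays could be measured and no p-value is given.

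Siglecs read the sialic acid caps of glycans on the same cell or on neighbouring cells. Most of them, CD22, Siglec-G, Siglec-E and human CD33 among them, carry cytoplasmic immunoreceptor tyrosine-based inhibitory motifs (ITIM) that recruit the phosphatases SHP-1 and SHP-2 and dampen activation. Siglec-H has no such motif and pairs instead with the adaptor DAP12, whose activating motif (ITAM) engages the kinase Syk. In mouse spleen, Siglec-H is known as a surface marker of pDC, CD22 and Siglec-G as inhibitory receptors of B cells, Siglec-1 (sialoadhesin) as a receptor of marginal metallophilic macrophages, and Siglec-E as a receptor of neutrophils and macrophages.

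RefSeq promoter windows (GRCm38.p6, 250 bases before to 50 bases after an annotated start) were matched for 5 of the 6 genes. Windows of Siglech, Cd33 and Cd22 are shown because these 3 genes had the largest differences between subsets, Siglech and Cd33 toward pDC and Cd22 toward CD11b+ cDC. They lie at chr7:55767934-55768233 on the plus strand (Siglech), chr7:43533122-43533421 on the minus strand (Cd33) and chr7:30878979-30879278 on the minus strand (Cd22). The last 50 bases of each belong to the transcript. The start used lies 30 bases inside the RefSeq gene record for Siglech, 4253 bases inside it for Cd33 and 1314 bases inside it for Cd22, so other starts of Cd33 and Cd22 were not examined. Capitals mark E-boxes, the letters CANNTG that E proteins such as Tcf4, the transcription factor of pDC, are known to bind.
Siglech: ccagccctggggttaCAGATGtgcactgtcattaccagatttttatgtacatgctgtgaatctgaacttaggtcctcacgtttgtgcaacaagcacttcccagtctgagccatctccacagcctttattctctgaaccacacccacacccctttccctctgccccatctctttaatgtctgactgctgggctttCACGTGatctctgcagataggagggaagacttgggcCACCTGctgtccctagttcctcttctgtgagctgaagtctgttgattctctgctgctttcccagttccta
Cd33: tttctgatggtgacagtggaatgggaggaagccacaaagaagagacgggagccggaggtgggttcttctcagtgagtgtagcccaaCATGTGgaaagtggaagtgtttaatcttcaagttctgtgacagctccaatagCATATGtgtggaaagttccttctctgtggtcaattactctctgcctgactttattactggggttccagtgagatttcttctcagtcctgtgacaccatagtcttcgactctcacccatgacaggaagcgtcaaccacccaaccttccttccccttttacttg
Cd22: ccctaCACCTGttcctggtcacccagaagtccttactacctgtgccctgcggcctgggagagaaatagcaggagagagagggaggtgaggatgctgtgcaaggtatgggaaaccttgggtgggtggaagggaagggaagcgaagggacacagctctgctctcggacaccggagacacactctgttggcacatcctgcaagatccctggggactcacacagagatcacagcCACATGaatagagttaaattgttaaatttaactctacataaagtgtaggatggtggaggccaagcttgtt

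The Siglech window held 3 E-boxes, at positions -235, -56 and -20 from the start, and the Cd33 and Cd22 windows held 2 each. The letters CANNTG read the same on both strands as a pattern, and 72.3% of 32851 promoter windows of this length held at least 1. The form CAGGTG, searched on both strands and contained in CANNTG, occurred once in the Siglech window and once in the Cd22 window, against 0 times in the Cd33 window, and in 20.2% of all windows. The core GGAA of ETS factors, searched on both strands, occurred 6 times in the Siglech window, 10 times in the Cd33 window and 5 times in the Cd22 window, and at least once in 96.0% of all windows. These matches are letters in a window and are not evidence of binding.

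Values are deposited intensities on a linear scale, called signals here. The background level was 111, the 95th percentile, on the highest array, of 87 probe sets for chemosensory receptors (olfactory, vomeronasal, taste and trace amine). A gene was counted as higher or lower where its signal differed 2-fold or more and the brighter array lay above background. Where the dimmer array did not, the fold was computed against background and is a lower bound, given as "at least". Of 13 measured pDC markers, 12 were higher in pDC than in either conventional subset. All 11 measured CD8+ cDC markers were higher in CD8+ cDC than in pDC, and 8 of the 11 were higher than in CD11b+ cDC. Of 10 CD11b+ cDC markers, 9 were lower in CD8+ cDC than in CD11b+ cDC and 8 lower in pDC, with 1, Cd209a, higher in pDC. Of all genes, 15.0% were higher and 14.3% lower in pDC than in CD11b+ cDC, and 16.0% and 14.8% than in CD8+ cDC. In CD8+ against CD11b+ cDC 9.86% were higher and 10.3% lower. Itgam and Cd8a, whose proteins name the conventional sorts, were each brightest in the subset so named. The proteins that defined the pDC sort are not given in the sources used here, and Siglec-H may be one of them. In bulk RNA, fewer cells of a type and less RNA per cell cannot be told apart.

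Of the 6 Siglec genes, 4 gave a signal above background on at least 1 array, and each of these 4 differed between subsets. Siglech and Cd33 were brightest in pDC, Cd22 and Siglecg in CD11b+ cDC, and none was brightest in CD8+ cDC. Siglec1 and Siglece were not above background in any subset.

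**Figure D1:**
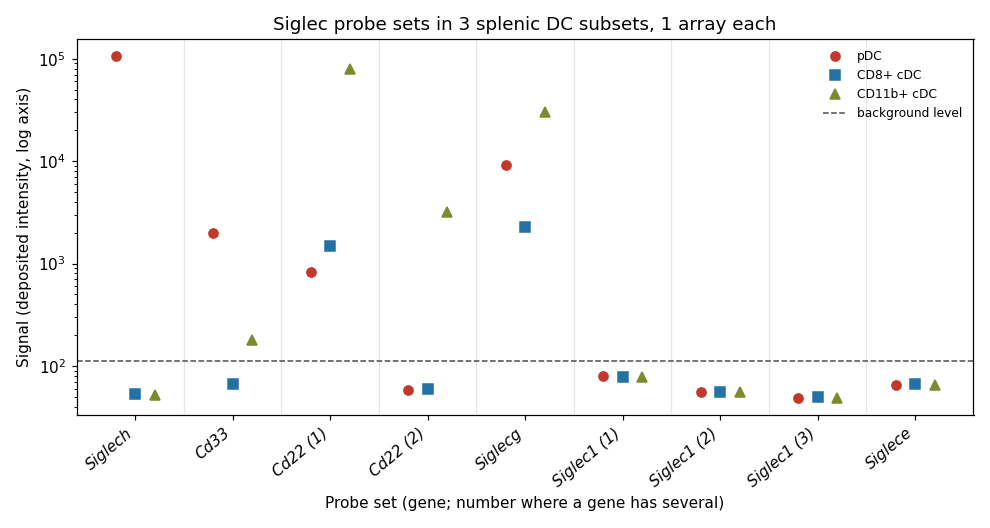
Signal (deposited intensity, log axis) of the 9 Siglec probe sets on the pDC, CD8+ cDC and CD11b+ cDC arrays, 1 array each, with the background level of 111 as a dashed line. Siglech and Cd33 stand highest in pDC, Cd22 and Siglecg in CD11b+ cDC, and the probe sets of Siglec1 and Siglece lie below the line on every array; heights of different probe sets are not comparable.

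Siglech, the DAP12-coupled receptor, gave a signal of 106310 in pDC, against 53.4 in CD8+ cDC and 52.2 in CD11b+ cDC. Only the pDC array was above background, and the conventional arrays differed from each other by less than 2 signal units. The signal in pDC was thus at least 956-fold higher than in either conventional subset. A single probe set measures the gene, so no second probe set was available as a check.

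Cd33, the receptor that gives the CD33-related Siglecs their name, gave 1989 in pDC, 66.9 in CD8+ cDC and 179 in CD11b+ cDC, also from a single probe set. It was above background in pDC and, at a low level, in CD11b+ cDC, and not above it in CD8+ cDC. The pDC signal was 11.1-fold higher than in CD11b+ cDC (log2 difference 3.47) and at least 17.9-fold higher than in CD8+ cDC. The conventional subsets were not counted as different. CD8+ cDC lay at least 1.61-fold below CD11b+ cDC, a lower bound that does not show whether the difference reached 2-fold. With background set at the 99th percentile of the receptor probe sets, which is 412, CD11b+ cDC also lay below the level and the pDC difference from either subset became at least 2.27 on the log2 scale.

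Cd22 gave 819 in pDC, 1493 in CD8+ cDC and 78540 in CD11b+ cDC at its brighter probe set. The dimmer probe set gave 57.8 in pDC and 59.7 in CD8+ cDC, both not above background, and 3166 in CD11b+ cDC. Both probe sets were thus brightest in CD11b+ cDC. At the brighter one, the signal in pDC was 95.9-fold lower than in CD11b+ cDC (log2 difference -6.58) and that in CD8+ cDC 52.6-fold lower (log2 difference -5.72). The dimmer probe set gave a difference of at least 28.5-fold for both. Between pDC and CD8+ cDC the brighter probe set differed 1.82-fold, short of the 2-fold rule.

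Few genes above background on both arrays differed more than Cd22 toward CD11b+ cDC. Larger differences toward the other subset, and those given as lower bounds, are not counted here. Among the 9943 genes above background in both pDC and CD11b+ cDC, 29 had a more negative difference of pDC minus CD11b+ cDC. Siglecg had 711 such genes beyond it, and Cd33 had 184 beyond it toward pDC. Among the 10086 above background in both conventional subsets, 17 had a more negative difference of CD8+ minus CD11b+ cDC.

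Siglecg, the gene of the other inhibitory Siglec of B cells, gave 9183 in pDC, 2264.5 in CD8+ cDC and 30504 in CD11b+ cDC. It was above background in all 3 subsets at its single probe set. Its order was CD11b+ cDC over pDC over CD8+ cDC, and each step exceeded 2-fold. The pDC signal was 3.32-fold lower than in CD11b+ cDC (log2 difference -1.73) and 4.06-fold higher than in CD8+ cDC (2.02), and the CD8+ cDC signal was 13.5-fold lower than in CD11b+ cDC (-3.75). No replicate spread exists for these arrays. As a measure of error within them, the log2 difference of pDC minus CD11b+ cDC varied with an SD of 0.86 between the brightest and the next probe set of the same gene, over 4836 genes. The corresponding SD was 0.89 against CD8+ cDC and 0.74 between the conventional subsets. The Siglecg differences each exceeded this SD, and the Cd22 difference of pDC minus CD8+ cDC, at -0.87, did not.

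Siglec1 gave signals of 79.0, 78.7 and 78.5 in pDC, CD8+ cDC and CD11b+ cDC at its brightest probe set, and from 49.0 to 56.2 at the other 2. Siglece gave 65.7, 66.3 and 65.9. These values lie below the background level and hardly vary between arrays, so no fold is given. A signal not above background does not show that the transcript is absent.

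By comparison, 4 Siglec genes were above background in pDC or CD11b+ cDC, and all 4 passed the 2-fold rule, where 29.3% of all genes did. Of them 2 were higher and 2 lower in pDC. Of all 10796 genes above background on either of these arrays, 15.0% were higher and 14.3% lower in pDC. Against CD8+ cDC, 3 of the 4 were higher in pDC and 0 lower, where 16.0% of 10821 genes were higher, 14.8% lower and 30.8% past 2-fold either way. In CD8+ cDC against CD11b+ cDC, 2 of 3 measured Siglec genes were lower and 0 higher, where 10.3% of 10707 genes were lower, 9.86% higher and 20.1% past 2-fold either way. The median log2 difference of all genes was 0.01, 0.00 and 0.01 in these comparisons. The first 2 of them share the pDC array, and each conventional array serves in 2 comparisons, so their counts are not separate evidence.

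**Figure D2:**
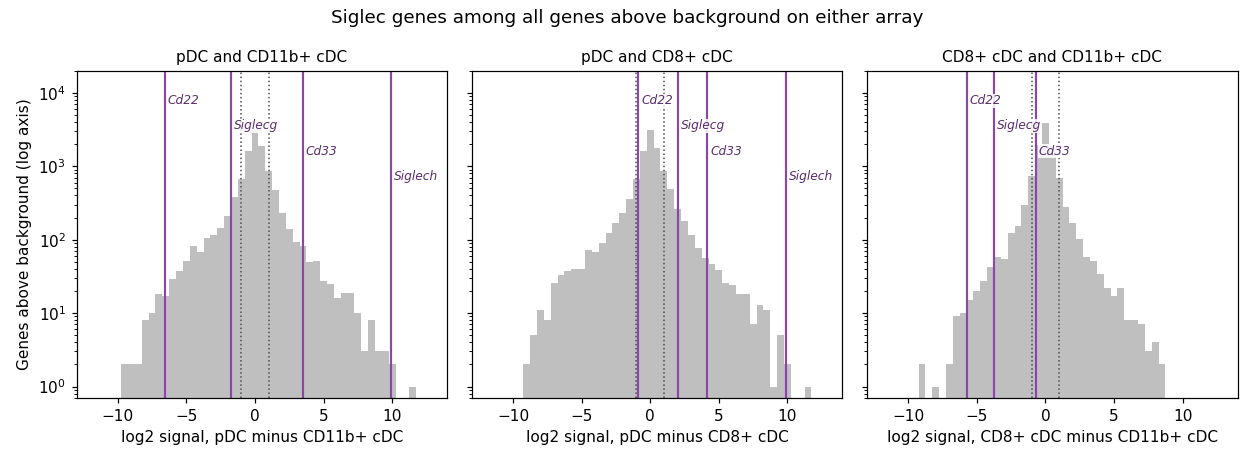
Log2 differences in signal within each of the 3 pairs of subsets named above the panels (x axes) against the number of genes above background on either array (log axis); purple lines mark Siglec genes and dotted lines the 2-fold rule. Siglech lies at 9.90 in both pDC comparisons and Cd22 at -6.58 and -5.72 against CD11b+ cDC, in the outer parts of the distributions.

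Markers of B cells, in which Cd22 and Siglecg are best known, were examined beside them. The lineage factors Pax5 and Ebf1, the antigen receptor component Cd79a, the pre-B cell gene Vpreb3 and the IgE receptor gene Fcer2a were not above background in any subset. Cd79a, for example, gave 64.4 in pDC, 62.8 in CD8+ cDC and 61.8 in CD11b+ cDC. Above background were 6 of 12 markers in pDC, 6 in CD8+ cDC and 7 in CD11b+ cDC, with summed signals of 237742, 86156 and 174828. Most of each sum came from the immunoglobulin heavy chain gene Ighm, with 171513 in pDC, 50809 in CD8+ cDC and 142572 in CD11b+ cDC.

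The detected B cell genes did not share 1 order over the arrays. Of 7 measured against CD11b+ cDC, 2 were higher and 4 lower in pDC, where 15.0% and 14.3% of all genes were. In CD8+ against CD11b+ cDC 1 was higher and 5 were lower of 7, where 9.86% and 10.3% of all genes were. In pDC against CD8+ cDC 4 were higher and 2 lower of 6, where 16.0% and 14.8% of all genes were. Bank1, a B cell scaffold protein gene, gave 550 in pDC, 2286 in CD8+ cDC and 14235 in CD11b+ cDC, and was thus highest in CD11b+ cDC, as Cd22 was. The Src family kinase gene Blk (317, 135 and 1983) and the complement receptor gene Cr2 (72.2, 71.5 and 509) were likewise highest there. Ms4a1, encoding CD20, was highest in CD8+ cDC, with 223 in pDC, 19147 in CD8+ cDC and 11046.5 in CD11b+ cDC. Cd79b was highest in pDC, with 10103, 381 and 4025.5 in the same order, and Fcrla gave 54639, 13003 and 118. Of 11 neutrophil and eosinophil markers on the array, 8 were above background in CD11b+ cDC. Of these 8, 7 were lower in pDC and 7 lower in CD8+ cDC than in CD11b+ cDC, where 14.3% and 10.3% of all genes were. The 7 were S100a8, S100a9, Mpo, Ngp, Camp, Ltf and the eosinophil gene Prg2, which gave 52.0, 75.3 and 792. The eosinophil genes Epx, Ccr3 and Il5ra were not above background in any subset. The 11 markers had summed signals of 2917 in pDC, 1656 in CD8+ cDC and 18141 in CD11b+ cDC. Their part in the Cd22 and Siglecg signals was not tested.

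Siglec1 can be read beside the macrophage markers. Of 14 markers, 12 were above background in pDC and 13 in each conventional subset, with summed signals of 58698 in pDC, 111923 in CD8+ cDC and 199402 in CD11b+ cDC. Among them Adgre1, encoding F4/80, gave 2641, 3196 and 70516, and Cd5l, a secreted macrophage protein gene, 3855, 3696 and 6171. C1qa, C1qb, C1qc, Mrc1, Mertk and Slc40a1 were also brightest in CD11b+ cDC. Others were not: Cd163 was brightest in pDC, with 1987, 616 and 600. Vcam1 (20551, 68203 and 58884), Spic (515, 1975 and 1542) and Hmox1 (609, 1741 and 1060) were brightest in CD8+ cDC. Against CD11b+ cDC 1 of 13 was higher and 7 were lower in pDC, where 15.0% and 14.3% of all genes were. Marco, a marginal zone macrophage receptor gene, lay near background at 83.5, 111 and 128, and Timd4 was not above it. Siglec1 was thus not above background on arrays where most macrophage markers were.

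**Figure D3:**
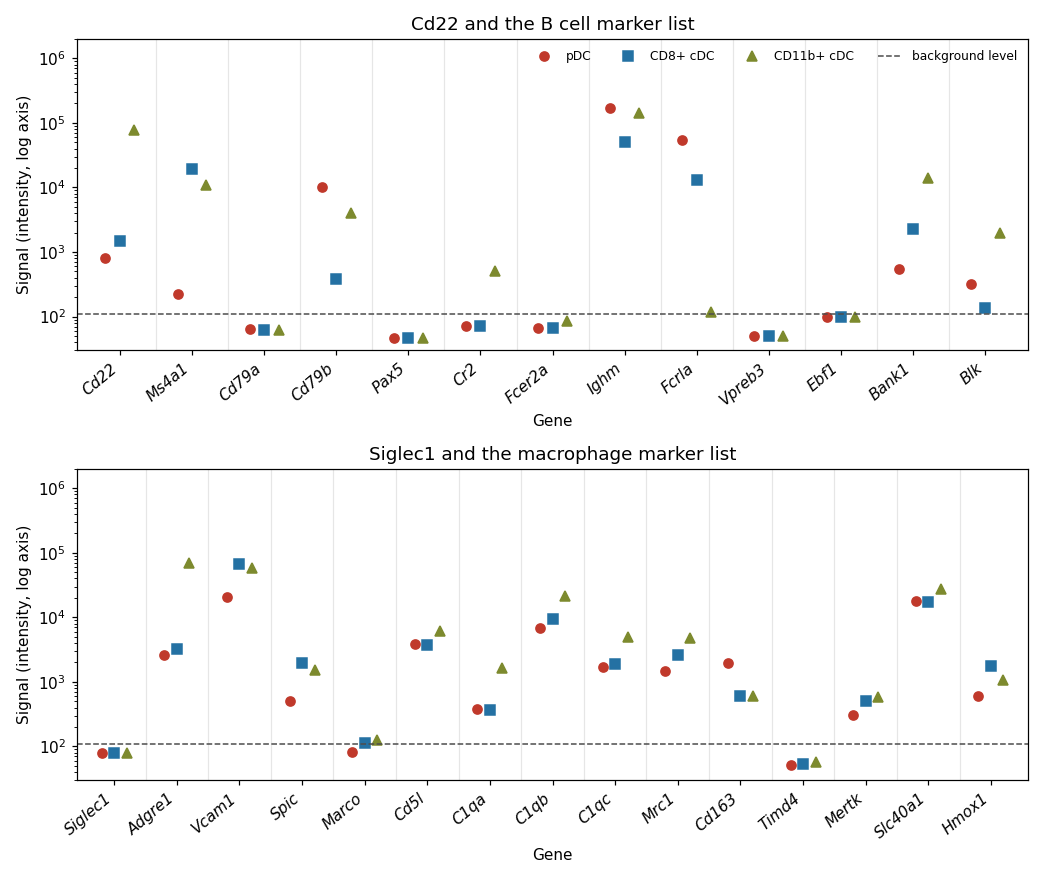
Signals (log axis) of Cd22 with 12 B cell markers (top) and of Siglec1 with 14 macrophage markers (bottom) on the pDC, CD8+ cDC and CD11b+ cDC arrays, with the background level as a dashed line. Cd22 reaches 78540 in CD11b+ cDC, where 7 of the 12 B cell markers lie above the line. Cd79a, Pax5, Vpreb3, Ebf1 and Fcer2a lie below it on every array. Siglec1 lies below the line beside macrophage markers above it.

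The 2 other Siglec genes measured on the array were Siglecf, a receptor of eosinophils, and Mag, a myelin protein gene. Siglecf gave 122 in pDC, 168 in CD8+ cDC and 175 in CD11b+ cDC, close to background and within 2-fold, and Mag was not above background.

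Genes that carry Siglec signals inside the cell were measured next. In the list of ITAM adaptors and downstream signalling genes, all 12 measured members were above background in every subset. Against CD11b+ cDC 3 were higher in pDC and 0 lower (median log2 difference 0.20), and against CD8+ cDC 6 were higher and 1 lower (median 1.22). In CD8+ cDC against CD11b+ cDC 1 was higher and 3 were lower (median -0.15). Of all genes, 15.0% were higher and 14.3% lower in pDC than in CD11b+ cDC, 16.0% and 14.8% than in CD8+ cDC, and 9.86% and 10.3% in CD8+ cDC than in CD11b+ cDC. With spike-in scaling the median against CD11b+ cDC turned to -0.15, with 2 higher and 1 lower, and CD8+ against CD11b+ cDC had 0 higher and 6 lower (median -1.15). Under that scaling the medians of all genes in these pairs were -0.30 and -0.95, so the whole array shifted too.

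Tyrobp, encoding the DAP12 adaptor of Siglec-H, gave 467190 in pDC, 118140 in CD8+ cDC and 273280 in CD11b+ cDC, from 1 probe set. It was 3.95-fold higher in pDC than in CD8+ cDC and 1.71-fold above CD11b+ cDC, so the adaptor was detected in all 3 subsets, unlike Siglech. The kinase gene Syk gave 49157, 12569 and 43048, again lowest in CD8+ cDC, and Fcer1g, the Fc receptor gamma chain gene, was 12.0-fold higher in pDC than in CD8+ cDC. Blnk, encoding an adaptor that links Syk to phospholipase C, was the member closest to the Siglech pattern, with 31610 in pDC, 163 in CD8+ cDC and 137 in CD11b+ cDC. The Src family kinase gene Fyn was 9.13-fold higher in pDC than in CD8+ cDC and 12.5-fold higher than in CD11b+ cDC, and Pik3ap1, the gene of the phosphoinositide 3-kinase adaptor BCAP, 3.15-fold and 2.53-fold. A dimmer Pik3ap1 probe set showed no such difference, at 296 in pDC, 297 in CD8+ cDC and 294 in CD11b+ cDC. Cblb, a ubiquitin ligase gene, went the other way and was 3.21-fold lower in pDC than in CD8+ cDC at its representative probe set, while its 2 other probe sets were 1.70-fold and 1.67-fold lower, short of the 2-fold rule.

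The 5 effectors of inhibitory motifs were above background in all 3 subsets. Ptpn6, encoding the phosphatase SHP-1 that CD22 and Siglec-G recruit, gave 238736 in pDC, 61224 in CD8+ cDC and 249710 in CD11b+ cDC. It was 3.90-fold higher in pDC than in CD8+ cDC and 4.08-fold lower in CD8+ than in CD11b+ cDC. CD8+ cDC thus had the lowest signal of both Ptpn6 and Siglecg. Socs3, a cytokine feedback inhibitor gene, was 7.67-fold higher in pDC than in CD8+ cDC and 2.96-fold higher than in CD11b+ cDC. Csk, the kinase that restrains Src family kinases, was 2.34-fold lower in CD8+ than in CD11b+ cDC. Ptpn11 (SHP-2) differed by less than 2-fold in every pair. The lipid phosphatase gene Inpp5d did so at the probe set with the higher signal. Its second probe set was 2.82-fold lower in pDC than in CD8+ cDC and 2.01-fold lower than in CD11b+ cDC. Against CD11b+ cDC 1 of the 5 was higher in pDC and 0 lower (median -0.13), against CD8+ cDC 2 were higher and 0 lower (median 0.66), and in CD8+ against CD11b+ cDC 3 were lower and 0 higher (median -1.23). The shares of all genes higher in pDC were 15.0% and 16.0%, and 10.3% were lower in CD8+ than in CD11b+ cDC. With spike-in scaling 3 of the 5 were higher against CD8+ cDC (median 1.30), and the median of CD8+ minus CD11b+ cDC was -2.22. The medians of all genes in these pairs were then 0.65 and -0.95.

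Of 10 genes that make, activate or break down sialic acid, 5 had a higher and 1 a lower signal in pDC than in CD11b+ cDC (median log2 difference 0.77), where 15.0% of all genes were higher and 14.3% lower. Against CD8+ cDC, 4 had a higher and 0 a lower signal in pDC (median 0.98), where 16.0% of all genes were higher and 14.8% lower. In CD8+ cDC against CD11b+ cDC 1 was higher and 2 were lower of 9 (median -0.41). These counts depended on the scaling: when spike-in controls set the scale instead, 3 were higher against CD11b+ cDC and 7 against CD8+ cDC, and in CD8+ against CD11b+ cDC 0 were higher and 6 lower (median -1.41). All genes then had medians of -0.30, 0.65 and -0.95 in these pairs.

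Cmah, encoding the hydroxylase that turns the N-acetyl form of activated sialic acid into the N-glycolyl form preferred by mouse CD22, gave 46889 in pDC, 52.9 in CD8+ cDC and 52.2 in CD11b+ cDC. Like Siglech, it was above background in pDC alone at this probe set, at least 422-fold higher than in either conventional subset. All 6 Cmah probe sets were brightest in pDC, but the others gave smaller folds. Against CD11b+ cDC these ran from at least 1.61-fold, short of the 2-fold rule, to at least 63.0-fold. The probe set with 734 in pDC, 186 in CD8+ cDC and 170 in CD11b+ cDC was above background in every subset. Gne, the enzyme gene that starts sialic acid synthesis, was 7.73-fold higher in pDC than in CD8+ cDC and 7.53-fold higher than in CD11b+ cDC. Slc35a1, the Golgi transporter of activated sialic acid, was 3.12-fold and 2.34-fold higher (2.04-fold and 1.77-fold at a dimmer probe set), and Siae, an esterase that removes acetyl groups from sialic acid, 5.88-fold and 2.74-fold. Cmas, which activates sialic acid, was 2.18-fold higher in pDC than in CD11b+ cDC. Npl, the lyase that breaks free sialic acid down, followed the Cd22 side: it gave 432.5 in pDC, 249 in CD8+ cDC and 11801 in CD11b+ cDC, which is 27.3-fold lower in pDC and 47.5-fold lower in CD8+ than in CD11b+ cDC. Renbp was 2.63-fold higher in CD8+ than in CD11b+ cDC.

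Sialyltransferases, which attach sialic acid to glycans in defined linkages, went both ways. Of 20 genes, 12 were above background in every subset. Against CD11b+ cDC 3 were higher in pDC and 5 lower (median -0.19), against CD8+ cDC 2 were higher and 1 lower (median -0.26), and in CD8+ against CD11b+ cDC 1 was higher and 4 were lower (median -0.03). Of all genes, 15.0% were higher and 14.3% lower in pDC than in CD11b+ cDC, and 16.0% and 14.8% than in CD8+ cDC. In CD8+ against CD11b+ cDC 9.86% were higher and 10.3% lower. The 2 higher against CD8+ cDC are a share near the 16.0% of all genes. With spike-in scaling 4 were higher against CD8+ cDC (median 0.38), and in CD8+ against CD11b+ cDC 0 were higher and 6 lower (median -1.02). The medians of all genes were then 0.65 and -0.95.

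St6gal1, which makes the linkage that CD22 binds, differed by less than 2-fold in every pair, with 94841 in pDC, 140564 in CD8+ cDC and 125537 in CD11b+ cDC. St8sia6, a sialyltransferase of disialic acid units, was highest in CD11b+ cDC at each of its 3 probe sets, the brightest giving 1469 in pDC, 2318 in CD8+ cDC and 57873 in CD11b+ cDC, or 39.4-fold lower in pDC and 25.0-fold lower in CD8+ than in CD11b+ cDC. St8sia1, the ganglioside GD3 synthase gene, gave 14328, 670 and 14079 and was 21.4-fold higher in pDC than in CD8+ cDC. St3gal6 was 33.2-fold higher in pDC than in CD8+ cDC and 28.4-fold higher than in CD11b+ cDC. St3gal5, the ganglioside GM3 synthase gene, was brightest in CD8+ cDC, being 42.4-fold lower in pDC than in CD8+ cDC, 11.1-fold lower in pDC than in CD11b+ cDC. Its signal in CD8+ cDC was 3.84-fold above that in CD11b+ cDC. St3gal2 and St3gal4 were lower in pDC than in CD11b+ cDC (3.98-fold and 4.65-fold) and lower in CD8+ than in CD11b+ cDC (2.98-fold and 2.78-fold). St8sia4, a polysialyltransferase gene, and St3gal1 were 2.67-fold and 2.16-fold higher in pDC than in CD11b+ cDC. The dimmer St8sia4 probe set gave 7.42-fold, and 5.05-fold against CD8+ cDC, and the dimmer St3gal1 probe set gave 1.09-fold, which does not meet the rule. Of the 3 sialidase genes measured, Neu1 and Neu3 were above background and differed by less than 2-fold, and Neu2 was not above it.

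**Figure D4:**
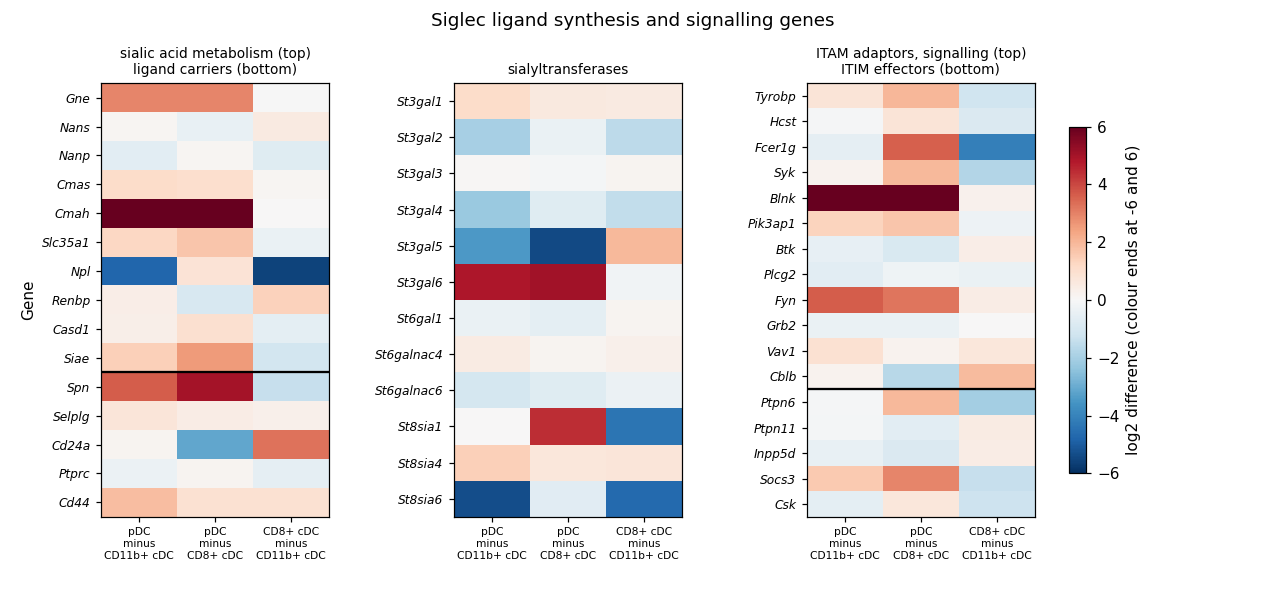
Log2 differences in signal (colour, ending at -6 and 6) for pDC minus CD11b+ cDC, pDC minus CD8+ cDC and CD8+ minus CD11b+ cDC, for genes above background in sialic acid metabolism and Siglec ligand carriers (left), sialyltransferases (middle) and Siglec signalling (right). Cmah, Gne, St3gal6, Blnk and Fyn are red in both pDC columns, and Npl and St8sia6 are blue wherever CD11b+ cDC is subtracted.

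Proteins that carry Siglec ligands were measured through 6 genes, of which 5 were above background. Spn, encoding the sialomucin CD43, a known ligand of Siglec-1, gave 88734 in pDC, 2809 in CD8+ cDC and 7209 in CD11b+ cDC, or 31.6-fold higher in pDC than in CD8+ cDC and 12.3-fold higher than in CD11b+ cDC. Cd24a, whose product is a ligand of Siglec-G, stood highest in CD8+ cDC, where Siglecg was lowest. It gave 23700 in pDC, 203199 in CD8+ cDC and 21189 in CD11b+ cDC, so it was 8.57-fold lower in pDC than in CD8+ cDC, and CD8+ cDC stood 9.59-fold above CD11b+ cDC. Cd44 was 3.59-fold higher in pDC than in CD11b+ cDC. Against CD11b+ cDC 2 of the 5 were higher in pDC and 0 lower (median 0.74), against CD8+ cDC 1 was higher and 1 lower (median 0.45), and in CD8+ against CD11b+ cDC 1 was higher and 1 lower (median 0.29). Of all genes, 15.0% and 16.0% were higher in pDC in these pairs and 9.86% higher in CD8+ cDC, and 1 of 5 lies near such shares. With spike-in scaling the last median became -0.71, and 3 of the 5 were higher in pDC than in CD8+ cDC. The medians of all genes in these pairs were then -0.95 and 0.65.

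Genes with the most similar pattern were taken as those with the smallest Euclidean distance to each Siglec gene over the 3 centred log2 signals, with values below background set to that level. The measure rests on 3 arrays and says nothing of shared function. Closest to Siglech were Cdh1 (distance 0.24 log2 units), encoding E-cadherin, Slco4a1 (0.30) and Havcr1 (0.31). As Siglech was set to background on both conventional arrays, closeness to it depends mainly on the pDC signal. Signals of different probe sets are not strictly comparable. Closest to Cd33 were Trp53i11 (0.14), Zcchc24 (0.15) and the unconventional myosin gene Myo10 (0.17). Closest to Cd22 were S100a4 (0.31), the transglutaminase gene Tgm2 (0.31) and Tbx21 (0.35), encoding the transcription factor T-bet. Closest to Siglecg were the ETS factor gene Elk3 (0.04), Ifi27 (0.20) and Cst7 (0.24).

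The Siglec genes lie on mouse chromosome 7 except Siglec1, which lies on chromosome 2. In the RefSeq order of protein-coding genes, Cd33 follows Siglecg with 9 genes between them and Siglece follows Cd33 with 4 between them, yet Siglecg was highest in CD11b+ cDC, Cd33 in pDC, and Siglece was not above background. Siglecf lies next to Siglecg and stayed close to background.

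The 5 protein-coding genes on each side of Siglech, Cd33, Cd22 and Siglecg were read as well, which was decided after the Siglec values were seen. Directly after Cd33 lies the zinc finger gene Zfp658, which gave 25409 in pDC, 88.4 in CD8+ cDC and 170 in CD11b+ cDC, 149-fold higher in pDC than in CD11b+ cDC at its single probe set. Directly after Siglech lies Tubgcp5, a gamma-tubulin complex gene, with 34763, 2202 and 2702.5, 12.9-fold higher in pDC than in CD11b+ cDC, while its 2 other probe sets were not above background. Of the 7 measured neighbours of Siglech 1 was thus higher in pDC than in CD11b+ cDC, and 2 were lower, Svip by 3.52-fold and Nipa1 by 3.75-fold. Close to Cd22 lies Ffar2, a fatty acid receptor gene, with 248 in pDC, 26361 in CD8+ cDC and 207692 in CD11b+ cDC, 838-fold lower in pDC than in CD11b+ cDC. Lsr, also close to Cd22, gave 133, 15887 and 678. It was 5.11-fold lower in pDC than in CD11b+ cDC but, unlike Cd22, 23.4-fold higher in CD8+ than in CD11b+ cDC. Of the 5 measured neighbours of Cd22 0 were higher and 2 lower in pDC than in CD11b+ cDC. For Cd33 1 of 4 was higher and 0 lower, and for Siglecg 0 of 3 differed. Over all 18 neighbours measured in pDC or CD11b+ cDC, 2 were higher and 4 lower in pDC, where 15.0% and 14.3% of all genes were.

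**Figure D5:**
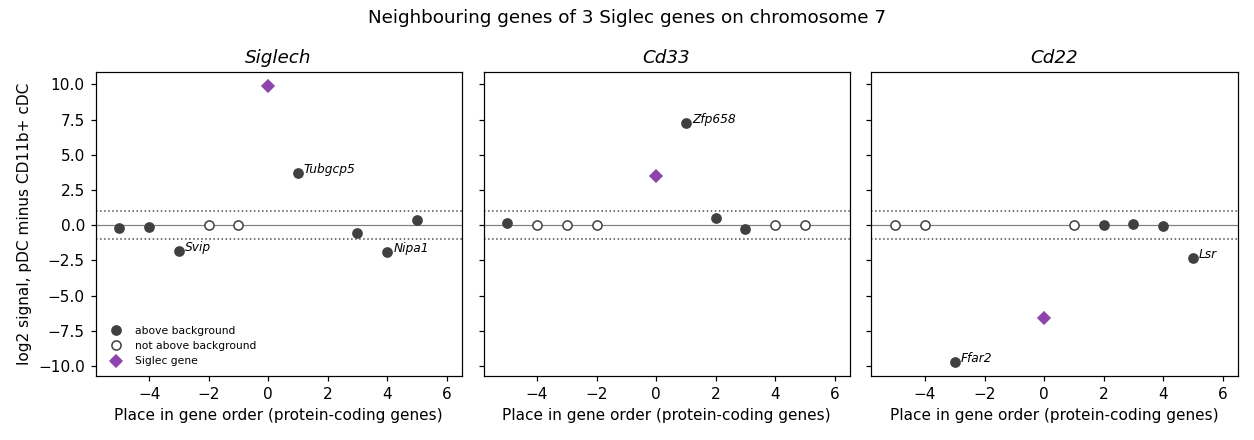
Log2 difference in signal, pDC minus CD11b+ cDC (y axis), of the 5 protein-coding genes on each side of Siglech, Cd33 and Cd22 by place in gene order (x axis); open circles mark genes not above background and dotted lines the 2-fold rule. Zfp658 and Tubgcp5 lie above 0 beside Cd33 and Siglech. Ffar2 and Lsr near Cd22, and Svip and Nipa1 near Siglech, lie below the lower dotted line. The other measured neighbours lie between the dotted lines.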

How the data were processed

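Total RNA (20 ng) of each sorted subset was amplified and labelled with biotin, per the labels' protocols. Each probe set has 1 deposited intensity per array, linear in scale. Per the submitters' processing notes MAS5 was used, and its version and any further normalization are not given in the sources used here. Sorted by size, the 3 columns lay on average 0.01 log2 units from their mean, so differences are relative to the bulk of genes, and 1063 to 1073 probe sets per array exceeded 65535.

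Of 45101 probe sets, 34958 had a single gene in the platform annotation. Where several probe sets measured a gene, the one brightest on average, in log2 after raising values to the background level of 111, stood for it, and other probe sets were checked beside it. Scripts ran in Python 3.11.15 with pandas 2.3.3 and numpy 2.4.6. The calling code was run on simulated data with large planted folds in bright genes and little noise. That run checks the code and does not show how reliable calls on these arrays are. With 1 array per subset no test was run, and the number of arrays limits the precision. Gene order was read from the RefSeq table of GRCm38.p6.

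The Siglec genes, the gene lists and the rules were chosen with earlier results of these data known. Named were all Siglec genes, and of each signalling, sialic acid or ligand list up to 3 genes per direction and pair with the largest differences, plus all members of lists of 5 or fewer, B cell and macrophage markers, and the 3 genes closest in pattern to each Siglec gene among 9297 whose brightest array reached 4 times background. St6gal1, Tyrobp, Syk and some further members were added for their roles or after their values were seen.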

Additional observations from a re-analysis of the deposited data

How the results depend on the processing

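The differences of the 4 detected Siglec genes were recomputed with background at the 90th and 99th percentile, with spike-in scaling and with log2 of signal plus 50 in place of a floor. For Cd22 the mean over probe sets and the second probe set were tried too, which the other 3 genes, with 1 probe set each, do not allow. All 54 values kept their side of the 2-fold rule and 0 changed direction, but some could not change. Siglecg and the brighter Cd22 probe set lay above every background level tried, so moving that level left their differences the same. Siglech lay below background on both conventional arrays, so its difference between them was 0 wherever a floor was used. Sizes moved most where a bound was involved: with background at the 99th percentile Siglech became at least 8.01 on the log2 scale, against 9.90. Cd22 in pDC minus CD11b+ cDC was -4.83 at its second probe set. With a 4-fold rule, 1 in place of 2 Siglec genes was lower in pDC than in CD11b+ cDC, since Siglecg dropped out. That rule left 649 genes higher and 780 lower in pDC against CD11b+ cDC, 744 and 821 against CD8+ cDC, and 406 higher and 425 lower in CD8+ against CD11b+ cDC.

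Scaling on the 18 hybridization spike-in probe sets moved the median difference of all genes to -0.30 (pDC minus CD11b+ cDC), 0.65 (pDC minus CD8+ cDC) and -0.95 (CD8+ minus CD11b+ cDC). It gave 3389 genes higher and 979 lower in pDC than in CD8+ cDC, and 408 higher and 4775 lower in CD8+ than in CD11b+ cDC. The share of calls that were higher became 34.8% (51.2% as deposited), 77.6% (51.9%) and 7.87% (49.0%) in the 3 comparisons. No paired analysis was possible because each subset has 1 array.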

Other observations

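Markers of other cell types gave further values. Of 7 plasma cell markers, 6 were above background in pDC, 4 in CD8+ cDC and 5 in CD11b+ cDC. Their summed signals were 185613, 50224 and 69236 in the same order, and 5 were higher in pDC than in CD8+ cDC. Of all genes, 16.0% were higher in that pair. Against CD11b+ cDC 3 of 6 were higher in pDC and 2, Irf4 and Prdm1, were lower, where 15.0% and 14.3% of all genes were. Jchain was brightest in CD11b+ cDC, with 7870 in pDC, 957 in CD8+ cDC and 14060 in CD11b+ cDC. Monocyte markers were lower in pDC than in CD11b+ cDC for 5 of 7 measured genes, where 14.3% of all genes were. Of 9 T and NK cell markers 3 were above background on each array, and Cd3e, Cd3g and Cd3d on none. The 3 detected erythroid markers differed by less than 2-fold in every pair.

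Genes close in pattern to Cd22, Cd33 and Siglecg differed widely in signal size. Those close to Siglech were of like signal in pDC, which the measure itself requires, as Siglech was set to background on both conventional arrays. Elk3 gave 7480 in pDC, 1922 in CD8+ cDC and 25694 in CD11b+ cDC, beside Siglecg. Tgm2, close to Cd22, gave 4709, 11050 and 440617 in the same order. Cdh1 was above background in pDC alone, with 86751, as Siglech was.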
